A study of Mus musculus with 40 samples.

Results

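The NADPH oxidase subunits described here are 9 genes of the 45706 in the deposited tables, taken by symbol, a rule that uses no measured value: Cybb, Cyba, Ncf1, Ncf4, Rac2, Nox1, Noxo1, Noxa1 and Nox4. The 9 genes were chosen with earlier results of these data known. Their RNA was measured in 40 libraries of sorted mouse cells, 4 in each of 10 groups. Neutrophils and monocytes were sorted from the blood of healthy mice, from the blood of tumor-bearing mice and from colon tumors, and epithelial and stromal cells were sorted from healthy colon and from colon tumors. Tumor-bearing mice were of the genotype Cdx2CreERT2 - Apc fl/fl on a background given as C57Bl6/Sv129 (the last number of this label counts up by 1 from library to library and was read as 129 throughout) and received a single intraperitoneal injection of Tamoxifen (25 mg/kg) at 8 to 10 weeks of age, which deletes the tumor suppressor Apc where the Cdx2 promoter drives the recombinase, in the colon epithelium. Healthy mice were C57Bl6 without a transgene and received no agent, so that tumor, genotype, strain background and Tamoxifen cannot be told apart in any comparison of tumor-bearing with healthy mice. Neutrophils were gated as CD45+ EpCAM- CD11b+ MHCII- Ly6C-low Ly6G+ cells and monocytes as the Ly6C-high Ly6G- counterpart, while epithelial cells were CD45- EpCAM+ and stromal cells CD45- EpCAM-. The titles of 4 blood libraries join 2 animal numbers and were read as pools of 2 mice.

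NADPH oxidases are membrane enzymes that pass electrons from NADPH to oxygen and so make superoxide. In phagocytes the catalytic subunit gp91phox (Cybb) sits in the membrane with its partner p22phox (Cyba), and superoxide is made once cytosolic subunits, among them p47phox (Ncf1) and p40phox (Ncf4), and the small GTPase Rac2 join them. Nox1 is the homologous catalytic subunit of the colon epithelium and works with an organizer (Noxo1), which is related to p47phox, and an activator (Noxa1), and Nox4 is a constitutively active homolog known from fibroblasts, vessel walls and kidney. The dual oxidases Duox1 and Duox2, with their maturation factors Duoxa1 and Duoxa2, make hydrogen peroxide at mucosal surfaces.

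The libraries held 10717873 to 38002939 counts (median 16338416), of which mitochondrial genes took 5.34% to 83.9%. Labelled cell types were checked against marker genes by summing the RPKM (reads scaled by gene length and by library size) of each list in each library. The neutrophil marker sum was at least 1904 RPKM in neutrophil libraries and at most 186.7 RPKM in monocyte libraries, and the monocyte marker sum was at least 216.9 RPKM in monocyte libraries and at most 22.6 RPKM in neutrophil libraries. Of the gating genes, Ly6g overlapped between healthy blood neutrophils (1.5 to 8.3 RPKM) and monocytes (1.2 to 5.9 RPKM), but not in tumor-bearing blood or tumors. Ly6c2 was higher in monocytes than in neutrophils of the same source, without overlap. Across sources, Ly6c2 of tumor monocytes (2.3 to 5.7 RPKM) overlapped that of blood neutrophils of tumor-bearing mice (1.9 to 3.3 RPKM). The epithelial marker sum was at least 88.7 RPKM in epithelial libraries. Tumor neutrophil replicate 1 stood apart, with an epithelial marker sum of 172.5 RPKM against 12.6 to 40.1 in the other 3 libraries and a leukocyte marker sum of 91.6 against 253.0 to 378.0. Healthy epithelial replicate 4 had the highest mitochondrial percentage and an epithelial marker sum of 88.7 RPKM against 269.6 to 425.7. The tumor stromal libraries went against their label in part. Their fibroblast marker sums were 6.13 to 24.3 RPKM, against 375.1 to 2060 in healthy stroma; replicates 1 and 2 held epithelial marker sums of 233.2 and 134.5 RPKM, and replicates 3 and 4 held neutrophil marker sums of 1508 and 511.0 RPKM. Calls of members that rest on these libraries are given with and without them, as are some of the tests that gave no call. Of the other genes named, those that lost their call are given. In sorted bulk samples, fewer cells of a type and less RNA per cell cannot be told apart.

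In the GRCm38 annotation (GENCODE M21), all 9 are protein-coding genes. Cybb (ENSMUSG00000015340) lies at chrX:9435252-9487771 on the minus strand, and Nox1 (ENSMUSG00000031257) at chrX:134086421-134221956, also on the minus strand. Cyba (ENSMUSG00000006519) lies at chr8:122424776-122432930, Ncf1 (ENSMUSG00000015950) at chr5:134220053-134229625 and Noxa1 (ENSMUSG00000036805) at chr2:25085667-25095149, each on the minus strand. Ncf4 (ENSMUSG00000071715, chr15:78244801-78262580, plus strand) and Rac2 (ENSMUSG00000033220, chr15:78559167-78572783, minus strand) share a chromosome. Noxo1 (ENSMUSG00000019320) lies at chr17:24696234-24700529 and Nox4 (ENSMUSG00000030562) at chr7:87246096-87398710, both on the plus strand. The annotated span of Noxa1 overlaps Entpd8 on the other strand, that of Ncf1 overlaps Gtf2ird2, that of Noxo1 overlaps Tbl3, that of Cyba overlaps Gm20388, and that of Nox1 overlaps Xkrx on its own strand and Cstf2 and Arl13a on the other. Strand was not stated for the counting, so that reads of such pairs may not have been told apart. Cybb, Ncf4, Rac2 and Nox4 overlapped no other annotated gene.

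The 250 bases before the annotated start are shown for Cybb, Nox1 and Noxa1, the members called changed between tumor-bearing and healthy mice in the comparisons that follow. They were taken from RefSeq (GRCm38.p6), which held an entry for 7 of the 9 members, and are written 5′ to 3′ on the strand of the gene. The intervals are chrX:9469325-9469574 for Cybb, chrX:134111855-134112104 for Nox1 and chr2:25095206-25095455 for Noxa1, all on the minus strand, with a GC content of 34%, 38% and 53.2%. In the files' annotation Cybb and Nox1 extend beyond these RefSeq starts. Capitals mark CCAAT on either strand (read as ATTGG on the other strand), GAGGAA, the core letters bound by the myeloid factor PU.1, and TTTATGG, letters bound by CDX factors; these 3 were chosen after the sequences had been seen.
Cybb: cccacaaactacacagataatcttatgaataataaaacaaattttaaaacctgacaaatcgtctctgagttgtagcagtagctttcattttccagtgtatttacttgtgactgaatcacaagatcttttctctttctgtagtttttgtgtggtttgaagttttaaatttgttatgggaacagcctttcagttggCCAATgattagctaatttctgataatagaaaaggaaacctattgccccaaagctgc
Nox1: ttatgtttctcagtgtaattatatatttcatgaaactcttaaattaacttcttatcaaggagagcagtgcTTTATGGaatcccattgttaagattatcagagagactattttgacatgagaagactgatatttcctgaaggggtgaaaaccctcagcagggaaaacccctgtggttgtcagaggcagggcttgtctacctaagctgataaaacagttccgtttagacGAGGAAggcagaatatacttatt
Noxa1: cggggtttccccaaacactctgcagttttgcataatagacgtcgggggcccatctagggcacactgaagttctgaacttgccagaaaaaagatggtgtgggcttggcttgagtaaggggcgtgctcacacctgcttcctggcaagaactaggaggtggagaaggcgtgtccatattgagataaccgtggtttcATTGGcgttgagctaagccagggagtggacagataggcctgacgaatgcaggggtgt
CCAAT was found on the strand of the gene 56 to 52 bases before the start of Cybb and on the other strand 57 to 53 bases before that of Noxa1. In Nox1, GAGGAA lay 23 to 18 bases and TTTATGG 180 to 174 bases before the start. Of 32851 promoter windows of the same length, 33.85% held CCAAT, 23.25% GAGGAA and 2.426% TTTATGG on either strand, with overlaps between motifs allowed. These matches are letters in a window and were not tested for binding.

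Across the 10 groups, the members fell into a set found in myeloid libraries and a set found in colon epithelium or stroma. Levels are given in RPKM, which are per gene length, as mean ± SD over 4 libraries. Cybb was highest in healthy blood monocytes (154.6 ± 30.6), followed by blood monocytes of tumor-bearing mice (109.4 ± 12.2), tumor monocytes (61.5 ± 8.22) and blood neutrophils of tumor-bearing mice (15.9 ± 4.66). Tumor neutrophils (4.89 ± 2.63), healthy blood neutrophils (4.38 ± 1.16) and tumor stroma (3.00 ± 2.00) came next, and healthy stroma (0.549 ± 0.295), tumor epithelium (0.324 ± 0.238) and healthy epithelium (0.153 ± 0.0642) were lowest. The libraries of the first and the second of these groups overlapped in range, as did those of tumor neutrophils, healthy blood neutrophils and tumor stroma as neighbours, and the last 3 groups as neighbours; the other neighbouring pairs did not overlap.

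Ncf1, Ncf4 and Rac2 had a different order, with neutrophils above monocytes. Rac2 was highest in blood neutrophils of tumor-bearing mice (92.2 ± 4.86 RPKM), above healthy blood neutrophils (56.3 ± 8.37), with no overlap, and tumor neutrophils (51.3 ± 26.2); blood monocytes of tumor-bearing mice (29.2 ± 11.8), healthy blood monocytes (21.9 ± 2.38) and tumor monocytes (11.9 ± 3.88) followed. Ncf1 ran from 31.6 ± 9.19 RPKM in tumor neutrophils through 24.7 ± 7.0 and 18.7 ± 8.50 in blood neutrophils of tumor-bearing and healthy mice to 7.94 ± 1.23 in tumor monocytes, with every neighbouring pair of the 6 myeloid groups overlapping in range. Ncf4 spanned a narrower range, from 23.7 ± 5.17 RPKM in blood neutrophils of tumor-bearing mice to 10.8 ± 3.27 in healthy blood monocytes, and its myeloid neighbours overlapped as well. In stroma and epithelium Ncf1 and Ncf4 each stayed at a mean of 2.52 RPKM or less. Cyba, the partner shared by Cybb, Nox1 and Nox4, varied least between groups among the 9: its group means ran only from 13.8 ± 6.62 RPKM in blood monocytes of tumor-bearing mice to 1.51 ± 0.953 in healthy epithelium, and each group overlapped the next. Its libraries within a group differed widely, from 1.58 to 11.1 RPKM among tumor neutrophils.

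Nox1 and Noxa1 marked the healthy colon epithelium. Nox1 had a mean of 2.38 ± 1.75 RPKM there and 0.316 ± 0.137 in tumor epithelium, with a mean of 0.0915 RPKM or less in the other 8 groups. Noxa1 had 3.28 ± 1.80 RPKM in healthy epithelium, 1.15 ± 0.533 in tumor epithelium and 0.707 ± 0.468 in tumor stroma. Nox4 was highest in healthy stroma (0.638 ± 0.411 RPKM), with no overlap with tumor stroma (0.106 ± 0.142), and rounded to 0 counts in every healthy epithelial library. Noxo1 reached no more than 33 counts in any library and 0.305 ± 0.120 RPKM in its highest group, healthy stroma, so that differences of this subunit were hardly measurable at this depth. In the 4 blood groups Nox4 and Noxa1 had at most 1 count in a library, at or under the floor of 3 counts below which no fold is given. Floors and counts cover counting error only.

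**Figure D1:**
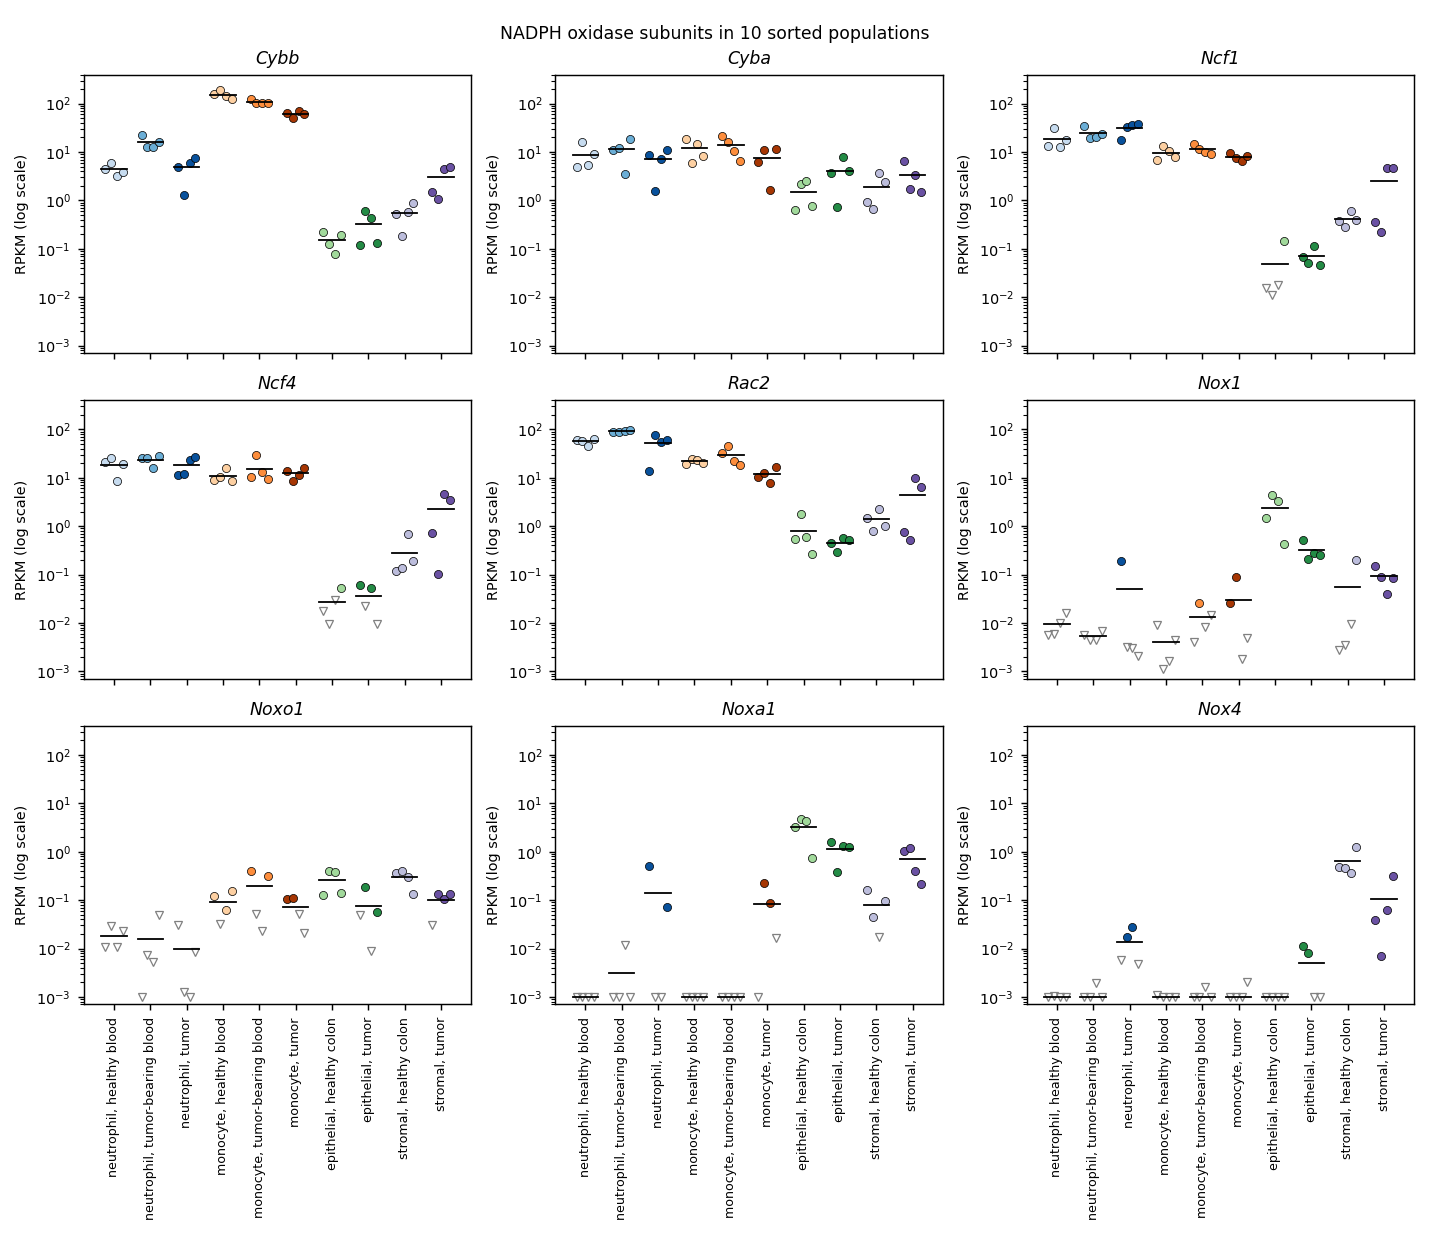
RPKM of each of the 9 subunits in every library (points, log axis) of the 10 groups, with a line at the group mean; triangles are libraries with 3 counts or fewer, and values under 0.001 are drawn at 0.001. Cybb is highest in the monocyte groups (50.9 to 193.7 RPKM), Rac2 and Ncf1 in the neutrophil groups, Nox1 and Noxa1 in healthy epithelium and Nox4 in healthy stroma.

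The summed RPKM of the 3 catalytic members was divided among them in each library. Cybb took 96.1% or more of it in each of the 24 myeloid libraries. In healthy epithelium Nox1 took 87.7 ± 13.5% (SD, n = 4), and in tumor epithelium the sum was split between Nox1 (52.5 ± 24.6%) and Cybb (46.8 ± 24.9%). In healthy stroma the sum was split between Nox4 (52.5 ± 14.2%) and Cybb (44.9 ± 14.8%), whereas in tumor stroma Cybb took 92.7 ± 3.78% and Nox4 2.54 ± 2.34%. The Nox1 share was 35.2 percentage points lower in tumor than in healthy epithelium (2-sided exact permutation test, p = 0.0571; 0.114 after Benjamini-Hochberg adjustment over 6 within-library ratios, n = 4 against 4). The smallest p that 4 against 4 libraries allow is 0.0286. In stroma the share differed by 2.15 points (exact permutation p = 0.371, adjusted 0.446).

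**Figure D2:**
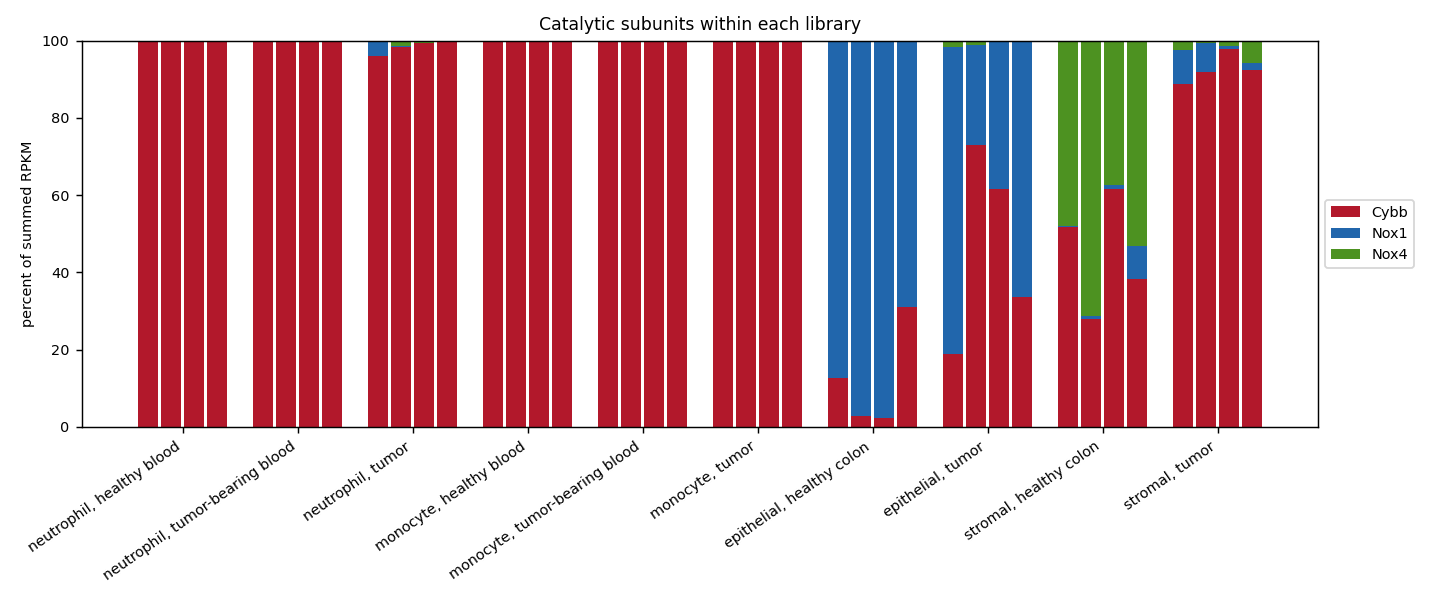
Share of the summed RPKM of Cybb, Nox1 and Nox4 held by each gene (stacked bars, percent), 1 bar per library, in the 10 groups. Cybb fills nearly the whole bar in the myeloid libraries, Nox1 holds 68.9% to 97.7% in healthy epithelium, and Nox4 holds 37.4% to 71.4% in healthy stroma.

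To ask how the phagocyte oxidase differed between neutrophils of healthy blood, of the blood of tumor-bearing mice and of tumors, these groups were compared by edgeR's quasi-likelihood test on the counts, with Benjamini-Hochberg adjustment over all genes tested. A gene was called changed at an adjusted p under 0.05 with an absolute log2 fold change over 1.5, and standard errors (SE) are those of the fit. Titles within a group carry different animal numbers, but the labels do not state how replicates were kept apart, so that p-values measure the spread between these samples only, which may be technical in part. Cybb was at 4.49, 5.92, 3.19 and 3.93 RPKM in healthy blood neutrophils. It was at 22.6, 12.8, 12.5 and 15.9 RPKM in blood neutrophils of tumor-bearing mice. All 4 libraries of tumor-bearing mice thus lay above the 4 healthy ones. Cybb rose by a log2 fold change of 1.92 (SE 0.211, adjusted p = 0.00179), that is 3.77-fold, and was the only one of the 5 members tested that was called; 4.01% of all genes tested were called in this comparison. Between these blood neutrophils Rac2 differed without overlap, with 44.4 to 64.0 RPKM in healthy mice and 87.9 to 98.7 RPKM in tumor-bearing mice. Its log2 fold change of 0.75 (SE 0.166, edgeR adjusted p = 0.0259) was under the fold required. Ncf1, Ncf4 and Cyba differed by 0.48, 0.41 and 0.43 on the log2 scale (edgeR adjusted p = 0.310, 0.408 and 0.648). Rac1, the ubiquitous relative of Rac2, differed by 0.28 (edgeR adjusted p = 0.348) and was not called. The Cybb call was lost when all 40 libraries shared a single fit (1.64, adjusted p = 0.0679). The neutrophil marker sum moved with Cybb, from 3687 to 8468 RPKM in healthy mice to 15240 to 19950 RPKM in tumor-bearing mice. Its 6 markers exceeded 3 counts in each library but did not all separate the groups. S100a9 overlapped, at 722.5 to 5305 and 1568 to 10370 RPKM, whereas S100a8 and Ly6g did not. The leukocyte marker sum was 280.3 to 351.2 and 346.8 to 400.1 RPKM. The part of these in the result was not tested.

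In tumor neutrophils Cybb was at 4.85, 1.28, 5.97 and 7.45 RPKM. Each of these libraries lay below all 4 libraries of blood neutrophils of the same kind of mice. Cybb fell by 1.76 on the log2 scale (SE 0.417, edgeR adjusted p = 0.0153), that is 3.39-fold, and was again the single member called of 5 tested, where 16.3% of all genes tested were called. This comparison and the preceding one share the blood neutrophils of tumor-bearing mice, and tumor neutrophils were not tested against healthy blood. The neutrophil marker sum moved with it, from 15240 to 19950 RPKM in blood to 1904 to 12240 RPKM in tumors. The epithelial marker sum was 12.6 to 172.5 RPKM in the tumor libraries, with all 10 markers above 3 counts in each, and at most 1.56 RPKM in blood, and mitochondrial genes took 17% to 37.5% against 9.36% to 16.8% of counts. The part of these in the result was not tested. Without tumor neutrophil replicate 1, which held the most epithelial transcripts, Cybb fell by 1.67 (adjusted p = 0.0298), and again no other member was called. Rac2 was at 14.0, 74.8, 55.8 and 60.8 RPKM in tumor neutrophils, and the low value was that of replicate 1. All 4 values were below the blood range of 87.9 to 98.7 RPKM, yet the fitted difference was -0.63 (SE 0.555, edgeR adjusted p = 0.471). Ncf1 was at 18.1, 33.7, 35.6 and 38.8 RPKM in tumor neutrophils and at 19.7 to 34.9 RPKM in blood, a log2 difference of 0.49 (edgeR adjusted p = 0.443). Ncf4 differed by -0.33 (adjusted p = 0.564), Cyba by -0.75 (adjusted p = 0.391) and Rac1 by -0.29 (adjusted p = 0.583). Without replicate 1, Rac2, Ncf1, Ncf4 and Cyba differed by -0.28, 0.75, -0.09 and -0.76. Thus, of these 6 genes, Cybb alone passed the thresholds in either neutrophil comparison, and differences between subunits were not tested beyond the ratio to Cyba.

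A ratio of genes within a library does not depend on how libraries are scaled. The mean log2 ratio of Cybb to Cyba was -0.88 ± 0.58 in healthy blood neutrophils, 0.67 ± 0.93 in blood neutrophils of tumor-bearing mice and -0.49 ± 0.27 in tumor neutrophils (SD, n = 4 each). The difference of 1.55 between the blood groups had a 2-sided exact permutation p of 0.0571 (adjusted over 6 ratios, 0.114). The difference of -1.16 between tumor and blood had an exact permutation p of 0.0286, the smallest the design allows, and 0.114 after adjustment, with every tumor library below every blood library; without tumor replicate 1 it was -1.05 (exact permutation p = 0.143). Neither ratio passed the adjusted threshold.

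Genes around the oxidase were read from lists of the other oxidase genes (7), of genes known to act in oxidase activation (13) and of genes that remove superoxide and peroxide (13). Between tumor and blood neutrophils, 4 of 11 genes tested in the last list rose and none fell, where 16.3% of all genes were called, with a list median of 0.73 on the log2 scale against 0.11 over all genes. Sod2, the mitochondrial superoxide dismutase, rose by 5.38 (SE 0.421, edgeR adjusted p = 1.40e-04). Prdx1, a cytosolic peroxiredoxin, rose by 3.09 (SE 0.694, adjusted p = 0.0119), and Sod1, the cytosolic dismutase, by 2.56 (SE 0.609, adjusted p = 0.0153). The fourth was Gpx2, a glutathione peroxidase of epithelium (2.19, adjusted p = 0.0408), and the epithelial marker sum was higher in the same tumor libraries. Of the 13 activation genes, Pik3r5, a regulatory subunit of phosphoinositide 3-kinase gamma, fell by 1.61 (adjusted p = 0.0193), and the list median was -0.82. Without tumor neutrophil replicate 1, Gpx2 (1.88, adjusted p = 0.0803) and Pik3r5 (-1.34, under the fold required) were no longer called. No other oxidase gene of the 2 tested was called. Between the blood neutrophil groups, none of 26 genes tested in these 3 lists was called.

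In monocytes no member was called between tumor and blood or between tumor-bearing and healthy mice. Cybb was at 161.4, 193.7, 141.4 and 122.0 RPKM in healthy blood monocytes. It was at 127.5, 102.2, 104.9 and 102.8 RPKM in blood monocytes of tumor-bearing mice. The groups overlapped, and the log2 difference was -0.40 (SE 0.167, edgeR adjusted p = 0.479); 0 of 5 members were called at a background of 0.209% of genes, and the other 4 members differed by 0.31 to 0.63 with adjusted p of 0.581 to 0.847. In the same comparison no gene of the 3 lists was called, and 1507 of 15313 genes tested had an unadjusted p under 0.05, of which 33 passed after adjustment; DESeq2 and limma-voom likewise called 0 members. In tumor monocytes Cybb was at 64.5, 50.9, 70.4 and 60.1 RPKM. These values lay below all blood libraries, but the log2 difference from blood monocytes of tumor-bearing mice was -0.56 (SE 0.185, edgeR adjusted p = 0.0625). Rac2 was at 10.5, 12.5, 7.67 and 16.9 RPKM in tumor monocytes and at 18.4 to 44.5 RPKM in those blood monocytes. The ranges did not overlap, but the log2 difference of -1.06 (SE 0.307, edgeR adjusted p = 0.0383) was under the fold required. Ncf1, Ncf4 and Cyba differed by -0.25, -0.08 and -0.65 on the log2 scale, with adjusted p of 0.443 to 0.916. Here 11.7% of all genes were called, 4736 of 15280 genes tested had an unadjusted p under 0.05, and DESeq2 and limma-voom also called 0 members. Sod2 was the single gene of the 3 lists that was called, with a rise of 3.45 (SE 0.251, edgeR adjusted p = 1.31e-05).

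An interaction term fitted to the 16 myeloid libraries of tumor-bearing mice asked if neutrophils and monocytes changed unequally from blood to tumor. For Cybb the change in neutrophils was lower than that in monocytes by 1.32 on the log2 scale (SE 0.473), with an edgeR adjusted p of 0.117, and by 1.21 (adjusted p = 0.156) without tumor neutrophil replicate 1. For Cyba, Ncf1, Ncf4 and Rac2 the term was -0.22, 0.62, -0.36 and 0.32 (edgeR adjusted p of 0.475 to 0.910). Without tumor neutrophil replicate 1 it was -0.20, 0.89, -0.12 and 0.68 (adjusted p of 0.147 to 0.935). No member was called, at a background of 3.95%, and 3634 of 17465 genes tested had an unadjusted p under 0.05. DESeq2 and limma-voom also called 0 members, as did a fit with the animal numbers of the titles, which recur across these groups, as a block. The larger fall of Cybb in neutrophils was therefore not shown to differ from that in monocytes. Sod1 (2.87, SE 0.652, edgeR adjusted p = 0.0206) and Sod2 (1.82, SE 0.431, adjusted p = 0.0246) were called, both with the more positive change in neutrophils.

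Neutrophils and monocytes of healthy blood held the subunits in different amounts. Cybb was at most 5.92 RPKM in the neutrophil libraries and at least 122.0 RPKM in the monocyte libraries. The log2 difference was -4.38 (SE 0.203, edgeR adjusted p = 1.89e-06), that is 20.9-fold lower in neutrophils. Rac2, Ncf1 and Ncf4 went the other way. Rac2 was higher in neutrophils by 2.14 on the log2 scale (SE 0.176, edgeR adjusted p = 1.59e-05), without overlap. Ncf1 was higher by 1.67 (SE 0.296, adjusted p = 0.00122) and Ncf4 by 1.52 (SE 0.298, adjusted p = 0.00221), although the libraries of Ncf1, at 13.03 to 31.0 RPKM in neutrophils and 6.98 to 13.2 in monocytes, and those of Ncf4 overlapped. Cyba differed by 0.33 (adjusted p = 0.529) and Rac1 by -0.21 (adjusted p = 0.299). In all, 4 of 5 members tested were called, at a background of 37.1%. The Ncf4 call stood at the edge of the fold threshold and was lost without any of 5 of the 8 libraries (log2 fold changes of 1.41 to 1.75 over all 8), and the Ncf1 call was lost without healthy neutrophil replicate 2 (log2 fold change 1.45). By their titles, 2 of the 4 monocyte libraries were pools of the animals of the 4 neutrophil libraries, and with these animals as a block Ncf4 was not called (1.36, edgeR adjusted p = 0.00914). On the RPKM scale with limma, Cybb alone was called. As within-library shares, Rac2 made up 69.6 ± 1.75% of the summed RPKM of Rac1 and Rac2 in healthy blood neutrophils and 31.2 ± 4.70% in healthy blood monocytes.

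Of the other lists, 5 of 11 genes tested for superoxide and peroxide removal were called between healthy neutrophils and monocytes, 1 higher and 4 lower in neutrophils, where 37.1% of all genes were called. Prdx1 was lower by 5.10 on the log2 scale (edgeR adjusted p = 6.27e-04), Prdx2 higher by 3.39 (adjusted p = 2.61e-04) and catalase (Cat) lower by 2.38 (adjusted p = 0.0137). Pik3r5 was higher by 1.59 (adjusted p = 1.31e-04) and was the single activation gene called of 13.

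In tumors Cybb, Ncf1 and Rac2 were called between the cell types. Cybb was lower in tumor neutrophils than in tumor monocytes by 3.23 on the log2 scale (SE 0.472, edgeR adjusted p = 0.00310). Ncf1 was higher by 2.60 (SE 0.431, adjusted p = 0.00599), with 18.1 to 38.8 RPKM in neutrophils and 6.65 to 9.53 RPKM in monocytes. Gtf2ird2, on the other strand of Ncf1, was at 2.32 to 5.29 RPKM in these neutrophils and at 0.518 to 1.64 RPKM in these monocytes, and its part was not tested. Rac2 was higher by 2.83 (SE 0.606, adjusted p = 0.0179). Without tumor neutrophil replicate 1, Cybb differed by -3.22 (adjusted p = 0.00241) and Ncf1 by 2.79 (adjusted p = 2.53e-04). Of 5 members tested 3 were called, at a background of 7.45%. Ncf4 differed by 1.09 (edgeR adjusted p = 0.133) and Cyba by 0.37 (adjusted p = 0.77). Without tumor neutrophil replicate 1, Ncf4 differed by 1.25 (adjusted p = 0.0228), under the fold required, and Cyba by 0.30 (adjusted p = 0.81). By their titles, 3 animals gave libraries to both groups, those of replicates 2, 3 and 4. With the replicate number as a block the Rac2 difference was 2.49 (edgeR adjusted p = 0.0658) and was not called, while with the animal number of the titles as the block it was 3.13 (adjusted p = 0.00848). The Rac2 call was also lost without any of the 4 tumor monocyte libraries (adjusted p up to 0.0811), whereas without tumor neutrophil replicate 1 it was 3.11 (adjusted p = 7.33e-04). Pla2g4a, the cytosolic phospholipase A2 that frees arachidonic acid, was lower in tumor neutrophils by 2.09 (adjusted p = 0.00728). No gene that removes superoxide or peroxide was called of 11 tested in this comparison.

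**Figure D3:**
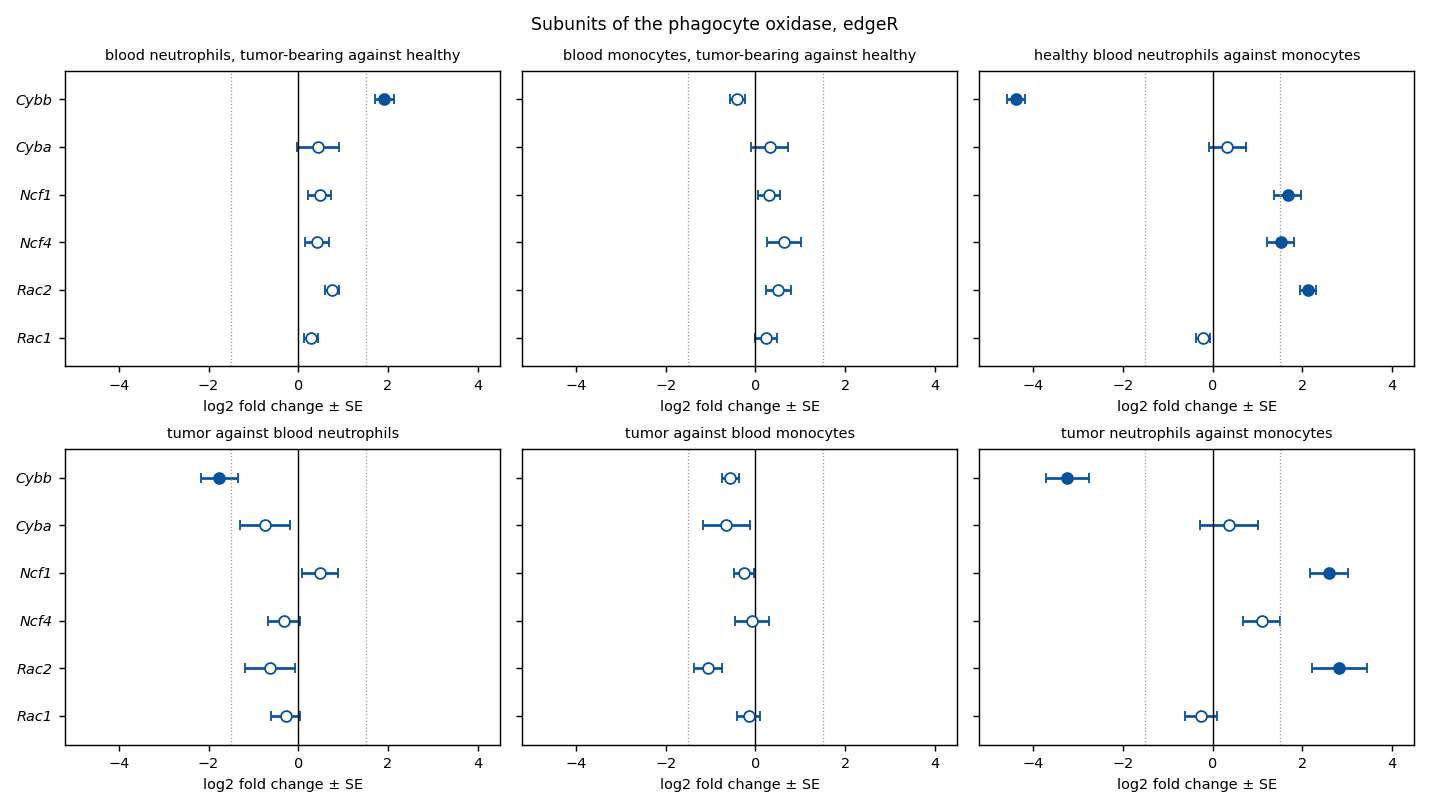
Log2 fold change ± SE (edgeR) of Cybb, Cyba, Ncf1, Ncf4, Rac2 and Rac1 in 6 comparisons of myeloid cells; filled points were called and dotted lines mark ±1.5. Cybb stands at 1.92 between blood neutrophils, -1.76 between tumor and blood neutrophils, and -4.38 and -3.23 between neutrophils and monocytes.

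In colon epithelium, Nox1 and its activator Noxa1 were lower in tumors. Nox1 was at 1.501, 4.34, 3.25 and 0.423 RPKM in healthy epithelium. It was at 0.517, 0.214, 0.276 and 0.256 RPKM in tumor epithelium. The lowest healthy library, replicate 4, lay within the tumor range, and the other 3 lay above it. Nox1 fell by 3.24 on the log2 scale (SE 0.431, edgeR adjusted p = 4.70e-04), that is 9.46-fold, and by 3.33 (adjusted p = 8.80e-04) without healthy replicate 4. Noxa1 was at 3.27, 4.74, 4.36 and 0.736 RPKM in healthy epithelium. It was at 1.60, 0.376, 1.34 and 1.28 RPKM in tumor epithelium. Again healthy replicate 4 alone overlapped the tumor libraries. Noxa1 fell by 1.99 (SE 0.394, edgeR adjusted p = 0.00457), and by 2.03 (adjusted p = 0.00829) without that library. Its call was lost in the fit of all 40 libraries and on both RPKM scales (over all alternatives, log2 differences of -2.16 to -0.90 and adjusted p up to 0.214). Entpd8, the gene on the other strand of Noxa1, was at 0.701 to 4.53 RPKM in healthy and 0.420 to 0.723 RPKM in tumor epithelium, and its part in the Noxa1 difference was not tested.

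These were 2 of 6 members tested in epithelium, at a background of 15.4%. Rac2 differed by -1.39 (SE 0.407, edgeR adjusted p = 0.0327), under the fold required, and Cyba by 0.66 (adjusted p = 0.481); without healthy replicate 4 they differed by -1.26 (adjusted p = 0.0634) and 1.03 (adjusted p = 0.278). Cybb and Ncf1 were low here, at no more than 0.602 and 0.147 RPKM in any library, and the sign of their difference changed with healthy replicate 4: Cybb differed by -0.20 (adjusted p = 0.895) with it and 0.92 (adjusted p = 0.418) without it. Ncf1 differed by -1.56 (adjusted p = 0.404) with it and 1.84 (adjusted p = 0.0706) without it. The leukocyte marker sum was 0.459 to 1.33 RPKM in healthy and 0.473 to 1.499 RPKM in tumor epithelium, and all 5 leukocyte markers exceeded 3 counts in every library. The monocyte marker sum was 0.444 to 2.04 RPKM in healthy and 9.01 to 26.0 RPKM in tumor epithelium. The endothelial sum was 0.0662 to 0.375 and 4.27 to 4.67 RPKM, and the groups overlapped in neither sum. Of the endothelial list, Cdh5 alone was at 3.94 to 4.26 RPKM in tumor epithelium. Of the monocyte list, Csf1r (at most 0.464 RPKM) and Ly6c2 (at most 0.175 RPKM) stayed low there. The part of these sums in the Cybb and Ncf1 values was not tested.

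The dual oxidases of the epithelium were among the genes that fell. Duox2 was at 1.33, 1.37, 1.15 and 0.623 RPKM in healthy epithelium. It was at 0.277, 0.189, 0.831 and 0.449 RPKM in tumor epithelium. The 3 highest values were healthy ones, and healthy replicate 4 fell within the tumor range. Duox2 fell by 2.28 (SE 0.418, edgeR adjusted p = 0.00292) and Duox1 by 1.84 (SE 0.516, adjusted p = 0.0274). Without healthy replicate 4 the Duox1 call was lost (-1.47, adjusted p = 0.0661). Duoxa2, the maturation factor of Duox2, differed by 0.22 (adjusted p = 0.851). Of 12 activation genes tested, Pla2g4a fell by 3.93 (adjusted p = 6.80e-04) and Vav3, an exchange factor for Rac GTPases, by 1.69 (adjusted p = 0.0193). Of 11 genes for superoxide and peroxide removal, Prdx6 alone was called, with a fall of 2.44 (adjusted p = 3.19e-05).

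**Figure D4:**
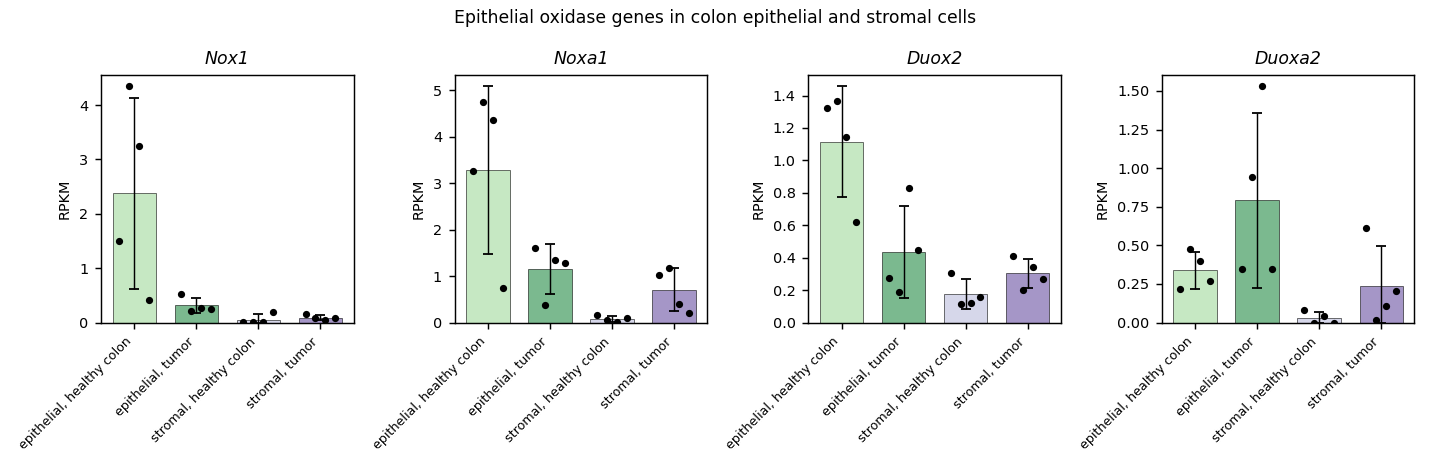
RPKM of Nox1, Noxa1, Duox2 and Duoxa2 in the 4 colon groups: bars are means, error bars the SD (n = 4, lower end drawn no further than 0), and points the libraries. Nox1 falls from a mean of 2.38 to 0.316 RPKM between healthy and tumor epithelium, while Noxa1 in tumor stroma reaches a mean of 0.707 RPKM.

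In stroma, the tumor libraries held transcripts of other cell types in unequal amounts, given here beside the members that differed. Cybb was at 0.525, 0.181, 0.588 and 0.901 RPKM in healthy stroma. It was at 1.51, 1.07, 4.45 and 4.98 RPKM in tumor stroma. All tumor libraries lay above all healthy ones, and replicates 3 and 4 were the highest. Cybb rose by 2.77 (SE 0.603, edgeR adjusted p = 0.0251). The leukocyte marker sum of the same tumor libraries was 5.77, 2.98, 52.8 and 56.7 RPKM, against 1.29 to 10.1 RPKM in healthy stroma, with all 5 markers above 3 counts in every library; the part of this in the Cybb result was not tested. With tumor replicates 1 and 2 alone the Cybb difference was 1.66 (adjusted p = 0.0558) and with replicates 3 and 4 alone it was 3.40 (adjusted p = 0.0129). The Cybb call was lost without tumor stromal replicate 3 or without healthy stromal replicate 1, 2 or 3 (adjusted p up to 0.0738).

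Of the other phagocyte subunits, Ncf1, Ncf4 and Rac2 moved with the same 2 libraries, and Cyba did not. Ncf1 was at 0.362, 0.220, 4.73 and 4.78 RPKM in tumor stroma and at 0.279 to 0.612 RPKM in healthy stroma. Rac2 was at 0.752, 0.505, 9.70 and 6.39 RPKM and Ncf4 at 0.732, 0.1004, 4.54 and 3.49 RPKM in tumor stroma. For each of these genes replicates 3 and 4 were the highest and replicate 2 was the lowest. Over all 4 libraries, Ncf1 differed by 2.91 (edgeR adjusted p = 0.0848), Ncf4 by 3.32 (adjusted p = 0.0853) and Rac2 by 1.96 (adjusted p = 0.191), and none was called. With replicates 3 and 4 alone, Ncf1 (3.82, edgeR adjusted p = 0.00328), Ncf4 (4.17, adjusted p = 0.0186) and Rac2 (2.84, adjusted p = 0.0111) were called, and with replicates 1 and 2 alone Ncf1 (-0.09) and Rac2 (-0.70) had the other sign. Cyba was at 6.575, 1.742, 3.375 and 1.507 RPKM in tumor stroma, highest in replicate 1 and lowest in replicate 4. It differed by 1.14 (edgeR adjusted p = 0.323) and was not called. The Cyba difference was 0.63 with replicates 3 and 4 alone and 1.48 with replicates 1 and 2 alone.

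Noxa1 was highest in the tumor stromal libraries with the most epithelial transcripts. It was at 1.03, 1.17, 0.409 and 0.213 RPKM in tumor stroma, where the epithelial marker sum was 233.2, 134.5, 51.1 and 30.5 RPKM. It was at 0.163, 0.0448, 0.0175 and 0.0957 RPKM in healthy stroma, where that sum was 2.48 to 21.2 RPKM. The groups did not overlap, and Noxa1 rose by 3.56 (SE 0.875, edgeR adjusted p = 0.0375). All 10 epithelial markers exceeded 3 counts in every tumor stromal library, and their part in the Noxa1 result was not tested. The call held without tumor replicate 4 and was lost without any other of the 8 libraries (adjusted p up to 0.109). With tumor replicates 1 and 2 alone Noxa1 was called (4.20, adjusted p = 0.0111), and with replicates 3 and 4 alone it was not (2.24, adjusted p = 0.204). Cybb and Noxa1 were the 2 members called of 8 tested, at a background of 8.4%. Nox1 differed by 1.12 (SE 1.22, adjusted p = 0.618). In healthy stroma it was at 0.201 RPKM in replicate 4 and at no more than 0.00959 RPKM in the other 3 libraries, and without replicate 4 its difference was 4.49 (adjusted p = 0.0155).

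Nox4 was at 0.485, 0.461, 0.357 and 1.25 RPKM in healthy stroma. It was at 0.0398, 0.00702, 0.0616 and 0.317 RPKM in tumor stroma. The ranges did not overlap. The log2 difference was -2.30 (SE 0.952, edgeR adjusted p = 0.175) and was not called, while it was -3.89 (adjusted p = 0.0241) without tumor replicate 4, -4.44 (adjusted p = 0.0126) with tumor replicates 1 and 2 alone and -1.46 (adjusted p = 0.345) with replicates 3 and 4 alone. The fibroblast marker sum was 6.13, 24.3, 20.5 and 18.9 RPKM in tumor stroma, against 522.6, 664.8, 375.1 and 2060 RPKM in healthy stroma, with all 7 markers above 3 counts in every library, and its part in the Nox4 difference was not tested. The endothelial marker sum was 4.46, 3.77, 114.5 and 120.8 RPKM in tumor stroma and 96.2, 99.4, 125.2 and 13.6 RPKM in healthy stroma. Its part in the Nox4 difference was not tested either. Of genes that remove superoxide or peroxide, the secreted dismutase Sod3 fell by 5.01 (edgeR adjusted p = 0.00473), the secreted peroxidase Gpx3 fell by 4.16 (adjusted p = 0.00433), and Gpx2, a glutathione peroxidase of epithelium, rose by 3.00 (adjusted p = 0.0445). Of 13 activation genes tested, 3 rose and 1 fell. Pak1 rose by 2.81 (adjusted p = 0.0188) and Pik3cg, the catalytic subunit of phosphoinositide 3-kinase gamma, by 2.14 (adjusted p = 0.0263), while Pla2g4a fell by 2.30 (adjusted p = 0.00574). The third that rose was Vav1, an exchange factor for Rac GTPases (1.85, adjusted p = 0.0469). The calls of Pik3cg (2.28, adjusted p = 0.0590) and Gpx2 (1.83, adjusted p = 0.212) were lost with tumor replicates 3 and 4 alone, and that of Vav1 with tumor replicates 1 and 2 alone (1.02, adjusted p = 0.124) or without healthy replicate 4 (1.90, adjusted p = 0.0741).

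**Figure D5:**
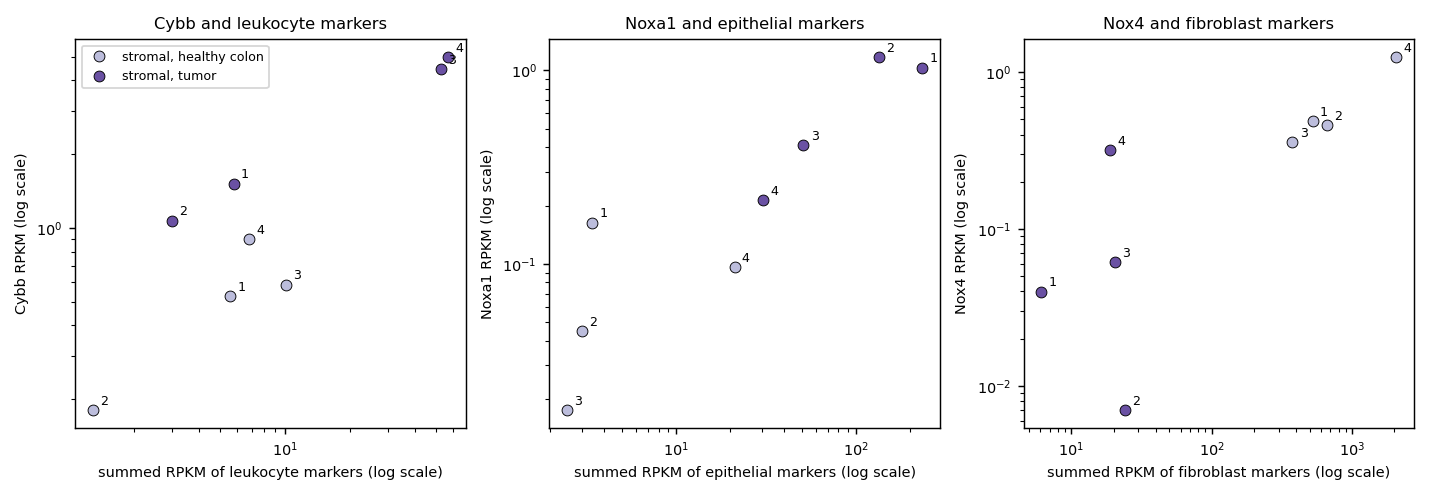
The 8 stromal libraries (numbers are replicates; both axes log, RPKM), with Cybb against the leukocyte marker sum, Noxa1 against the epithelial marker sum and Nox4 against the fibroblast marker sum. Tumor replicates 3 and 4 have the highest Cybb (4.45 and 4.98 RPKM) and leukocyte sums, tumor replicates 1 and 2 the highest Noxa1 and epithelial sums, and the healthy libraries the highest Nox4 and fibroblast sums.

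Between epithelium and stroma of healthy colon, Nox1, Noxa1 and Nox4 separated the compartments. Nox1 was higher in epithelium by 6.16 on the log2 scale (SE 1.19, edgeR adjusted p = 0.00297) and Noxa1 by 6.10 (SE 0.624, adjusted p = 1.28e-04), neither with overlap. Nox4 had 161 to 702 counts in the stromal libraries and 0 after rounding in the epithelial ones, which makes it at least 52.5-fold lower in epithelium against a floor of 3 counts per library, the lowest ratio among scaling by total counts, by the deposited RPKM and by TMM without mitochondrial genes (edgeR adjusted p = 4.44e-04). These 3 of 9 members were called at a background of 30.9%, and Noxo1, tested here alone, differed by 0.76 (adjusted p = 0.350). Duoxa2 and Duox2 were higher in epithelium by 4.48 (adjusted p = 0.00828) and 3.81 (adjusted p = 3.22e-04). Without healthy epithelial replicate 4, Ncf1 (-4.07, edgeR adjusted p = 0.00125) and Ncf4 (-3.32, adjusted p = 0.0257) were also called, lower in epithelium; Nox1, Noxa1 and Nox4 kept their calls without either of the healthy libraries that stood apart, epithelial replicate 4 (Nox1 6.30) and stromal replicate 4 (Nox1 9.54), whose titles name the same animal. Among activation genes Pak1 (2.17) and Prkcd (1.63) were higher and Prex1 (-2.06) lower in epithelium, and among superoxide and peroxide genes 6 of 12 were called, led by Sod3 (-7.48), Gpx3 (-6.25) and Gpx2 (5.60). Without epithelial replicate 4 the call of Prkcd was lost (1.48, under the fold required).

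In tumors no member was called between epithelium and stroma, at a background of 0.0294%, which is 5 of 16985 genes tested; 2507 genes had an unadjusted p under 0.05. DESeq2 called 5 members and limma-voom 0. Ncf4 (-5.93, SE 1.18, edgeR adjusted p = 0.0622), Ncf1 (-5.22, SE 1.06, adjusted p = 0.0629) and Cybb (-3.18, SE 0.713, adjusted p = 0.0776) were lower in epithelium without overlap but missed the threshold, and Nox1 differed by 1.82 (adjusted p = 0.166) and Noxa1 by 0.66 (adjusted p = 0.657). With tumor stromal replicates 3 and 4 alone 6 members were called, and with replicates 1 and 2 alone none was. By their titles tumor stromal replicates 3 and 4 came from the animals of tumor epithelial replicates 1 and 2, and with the animal as a block, which leaves 1 residual degree of freedom, Cybb (-3.80), Ncf1 (-6.12), Ncf4 (-6.36) and Rac2 (-4.17) were called. The epithelial marker sum was 151.6 to 379.1 RPKM in tumor epithelium, a range that the 233.2 RPKM of tumor stromal replicate 1 fell into.

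The genes most like each member across the 40 libraries were found by Pearson's r of log2(RPKM + 1) among 8210 genes with a mean RPKM of at least 1. The libraries share groups and cell types, so r is a description. Cybb was most like Aoah (0.976), Myo1g (0.968) and Csf1r (0.956), the last being the receptor that defines the monocyte lineage and a member of the monocyte marker list. Ncf1 was most like Mcemp1 (0.983), Lcp1 (0.980) and Gm7823 (0.977), and Ncf4 most like Itgam (0.983), Syk (0.981) and Gm9025 (0.981). Rac2 had Gmfg (0.985) and Selplg (0.979) among its closest genes. Nox1 was most like Fa2h (0.964), Akr1c19 (0.962) and Isx (0.962), an intestinal homeobox gene, and Noxa1 like Tmem171 (0.968), Ern2 (0.966) and Cftr (0.965), a chloride channel of epithelia. Nox4 was most like Aebp1 (0.984), Has1 (0.977), a hyaluronan synthase, and Cd248 (0.977). Cyba had weaker partners, Gm43222 (0.871), Tmsb4x (0.857) and Znhit1 (0.842), as did the scarcely detected Noxo1, with Gstm3 (0.768), Tlr3 (0.737) and Gstm1 (0.735).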

How the data were processed

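RNA of 40 libraries of sorted mouse cells was measured by sequencing. The authors extracted RNA (PicoPure) and amplified it to double-stranded cDNA (NuGEN Ovation V2) before library preparation (TruSeq Nano) and sequencing on an Illumina HiSeq instrument; reads were mapped to mm10 with Bowtie2 through the HTSstation service, and strand, the treatment of multiply mapped reads and the annotation version are not given in the sources used here. Amplification can distort scarce transcripts and 3′ coverage. The authors deposited estimated counts per gene (an expected count need not be whole, and 99.58% of the nonzero values were not) and RPKM values that they had scaled by gene length and library size. The per-library files held the same values as the deposited count table. Counts were rounded, which changed a library total by at most 1105.

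Groups came from the labels. The labels number the tumor stromal replicates 1, 2, 3 and 3, and these were counted as 4 libraries. Replicates of a group differed by 21.6 to 856 times the counting error for genes with at least 20 counts (60 pairs), so that none was a copy. The comparisons were fitted in R 4.3.3 with edgeR 4.0.16 (TMM, filterByExpr, robust quasi-likelihood) on the 8 libraries compared, or 16 for the interaction, with Benjamini-Hochberg adjustment over all genes tested, and checked on simulated data. The thresholds (adjusted p under 0.05, absolute log2 fold change over 1.5) are those the study's methods state. For the test, edgeR on the rounded counts stood in for the limma-voom they name, which was run as an alternative. Within-library ratios were tested by exact permutation over 70 arrangements. The 9 members were named throughout, with Rac1, Duox2 and Duoxa2, the 3 called genes with the largest change in each pathway list, and the 3 most like genes, except for 1 gene that is not reported here; overlapping genes were named after their values were seen. The members and lists were chosen with earlier results of these data known. Marker lists of 10 cell types were summed in RPKM. Sums of the macrophage, lymphocyte, erythroid and platelet lists over the 40 libraries reached at most 29.8, 13.2, 4514 and 225.2 RPKM. Each result was also computed with RLE scaling, with DESeq2 1.42.0 and limma-voom (limma 3.58.1), and with no filter, all 40 libraries in a single fit, a replicate block, no fold threshold, no mitochondrial genes, limma on log2(RPKM + 1) or log2(RPKM + 0.1), and leaving out each library. After the data were seen, fits of the tumor stromal libraries in pairs and, in the 4 comparisons whose titles share more than 1 animal, a block by title number were added. Ratios and figures were made in Python 3.11.15.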

Additional observations from a re-analysis of the deposited data

Results flagged for a closer look

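In groups of 4 libraries, a library was singled out where its distance to the nearest other exceeded Dixon's 95% critical share of the group's range. Of 74 combinations of a member and a group tested, 7 met this, and chance alone gives about 1 in 20. In tumor neutrophils, replicate 1 was highest for Nox1 (0.190 RPKM against at most 0.00311) and for Noxa1 (0.499 RPKM against at most 0.0725), and it was also the library with the epithelial marker sum of 172.5 RPKM; the part of these transcripts in the values was not tested. In healthy colon stroma, replicate 4 was highest for Nox1 (0.2013 RPKM against at most 0.00959) and for Nox4 (1.25 RPKM against at most 0.485). That library also had the highest epithelial (21.2 RPKM) and fibroblast (2060 RPKM) marker sums and the lowest endothelial sum (13.6 RPKM) of the 4. In healthy colon stroma, replicate 3 was highest for Ncf4 (0.673 RPKM against at most 0.189), with the highest leukocyte marker sum of its group (10.1 RPKM). In healthy colon epithelium, replicate 4 was highest for Ncf1 (0.147 RPKM against at most 0.0183), the library with 83.9% mitochondrial counts. In blood monocytes of tumor-bearing mice, replicate 1 was highest for Cybb (127.5 RPKM against at most 104.9).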

How the results depend on the processing

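The log2 fold changes of the members gave 65 results and 1153 refits. Of these refits, 1030 kept the direction and the side of the thresholds, 40 lost a call, 45 gained one and 38 reversed, all 38 for results that were not called; another 44 combinations gave no value. The 16 called results kept their call in 233 of 273 refits and lost it in 40. The median over all genes moved by -0.92 to 0.74 on the log2 scale with limma on RPKM, against which those fits are to be read. Mean levels of the members were also computed with TMM library sizes without mitochondrial genes, and 16 of 90 moved by at least their SD. Some orders of groups changed on this scale. Cybb was then higher in healthy (0.316) than in tumor epithelium (0.292), and Rac2 in tumor (71.6) than in healthy blood neutrophils (69.5). Cyba was then highest in blood neutrophils of tumor-bearing mice (14.4) and Noxo1 in healthy epithelium (0.369). Causes were not tested.

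With all 40 libraries in a single fit, the number of members called was 3 between tumor and blood neutrophils, 1 between tumor and blood monocytes, 0 between blood neutrophils, 1 in epithelium, 5 in stroma, 2 and 5 between neutrophils and monocytes of healthy blood and of tumors, and 5 between tumor epithelium and stroma. Without a fold threshold it was 1 between tumor and blood monocytes and 2 between blood neutrophils. DESeq2 called 4 in stroma and 5 between tumor epithelium and stroma, and limma-voom 1 in stroma. With limma on log2(RPKM + 1), the counts were 0 in epithelium, 0 in stroma, 1 between healthy neutrophils and monocytes and 0 between healthy epithelium and stroma; on log2(RPKM + 0.1) they were 0, 1, 1 and 0. Of the members called on counts, however, Nox1 in epithelium, Noxa1 in stroma and Nox1, Noxa1 and Nox4 between healthy epithelium and stroma did not reach 1 RPKM in 4 libraries and were not tested on these scales. With tumor stromal libraries 3 and 4 alone, 4 members were called against healthy stroma and 6 against tumor epithelium. Leaving out each library in turn gave 2 to 4 members between healthy neutrophils and monocytes, 3 to 5 between healthy epithelium and stroma, 0 to 3 in stroma and 0 to 4 between tumor epithelium and stroma.

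The log2 Cybb to Cyba ratio ranged, without each library in turn, from -1.47 to -0.78 between tumor and blood neutrophils (exact permutation p of 0.143 without tumor replicate 1), from -0.45 to 0.61 between tumor and blood monocytes (reversed without tumor monocyte replicate 3) and from 1.17 to 1.86 between blood neutrophils. The Nox1 share differed by -44.2 to -26.4 points in epithelium. In stroma it reversed to -1.82 points with 0.1 RPKM added to each subunit.

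Reversed log2 differences are given here with their ranges. Between tumor and blood monocytes, Ncf4 was 0.037 with limma-voom and between -0.26 and 0.46 without each library. In epithelium, Cybb was 0.35 and Ncf1 0.77 with limma-voom; without each library Cybb ranged from -0.90 to 0.92 (0.05 and 0.07 without tumor replicate 1 or 4) and Ncf1 from -1.998 to 1.84. In stroma, tumor libraries 1 and 2 alone gave -0.092 for Ncf1 and -0.70 for Rac2. Cyba was -0.41 and -0.45 on the RPKM scales between healthy neutrophils and monocytes, -0.049 and -0.055 in tumors, and -0.18 and -0.26 between healthy epithelium and stroma. Between healthy epithelium and stroma, Cybb ranged from -1.27 to 0.25 and Rac2 from -0.17 to 0.48 without each library. Between tumor epithelium and stroma, Cyba was -0.068 with tumor stromal libraries 1 and 2 alone and ranged from -0.070 to 0.80 without each library. In the interaction, Cyba was 0.27 and 0.31 on the RPKM scales and -0.56 to 0.18 without each library, and Rac2 was -0.22 with limma-voom and -0.20 to 0.68 without each library.

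Replicate numbers do not pair the libraries by label. By their titles, same-numbered libraries shared an animal in replicates 2, 3 and 4 of tumor neutrophils and monocytes and in replicate 4 of healthy epithelium and stroma. They also did in replicate 1 of tumor monocytes and blood monocytes of tumor-bearing mice and in replicate 4 of healthy blood neutrophils and monocytes. Within the interaction, so did replicates 1, 3 and 4 of blood neutrophils and monocytes of tumor-bearing mice. Deviations of same-numbered libraries correlated at -0.15 to 0.25, and in no comparison were all 4 pairs over 0.1. With the replicate block, the number of members called was 1, 0, 1, 0, 2, 3, 4, 2, 3, 0 and 0 against 1, 0, 1, 0, 2, 2, 4, 3, 3, 0 and 0 without it, in the order tumor against blood neutrophils and monocytes, blood neutrophils, blood monocytes, epithelium, stroma, neutrophils against monocytes of healthy blood and of tumors, epithelium against stroma of healthy colon and of tumors, and the interaction. Under the block Cybb was -1.88 between tumor and blood neutrophils and 1.89 between blood neutrophils, Nox1 was called in stroma (4.58), Rac2 was not called between tumor neutrophils and monocytes, and no other call changed. It reversed Ncf4 between tumor and blood monocytes (0.083), Cybb (0.16) and Ncf1 (0.73) in epithelium, and Cyba in the interaction (0.18). With the animal numbers of the titles as a block, 3 members were called between healthy neutrophils and monocytes, 3 between tumor neutrophils and monocytes, 4 between tumor epithelium and stroma and 0 in the interaction; it reversed Cyba between tumor epithelium and stroma (-0.18) and in the interaction (0.20). The comparisons of tumor with blood neutrophils, of tumor with blood monocytes and of healthy epithelium with stroma share 1 animal each, which leaves no residual degree of freedom for such a block. Depth limits Noxo1 throughout and Nox1, Noxa1 and Nox4 in blood cells, which had too few counts to be tested.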
